A study of Mus musculus with 59 samples.

Results

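The genes described here encode the synaptic vesicle and release machinery of the mouse ventral tegmental area (VTA), a dopamine-rich part of the midbrain whose neurons reach the striatum and cortex. They were taken by symbol: synaptotagmins, synapsins, syntaxins and their binding proteins, SNAP and VAMP proteins, complexins, Rab3 and symbols that begin with Rab3, RIMs, Munc13 proteins and SV2. A gene also needed a mean FPKM of 1 or more over the 59 libraries, where FPKM counts fragments per length of transcript and per library total. Of 24346 symbols, 90 matched the patterns and 78 met the level. The pattern for Rab3 also took 10 members numbered from Rab30 to Rab39, which are other small GTPases, and the pattern for SNAP took Snap91, a clathrin adaptor (AP180). Without the Rab30 to Rab39 genes 68 members remained.

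The libraries came from total RNA of male mice in 4 paradigms, each with cocaine and saline groups. Acute home cage injections had 5 cocaine and 6 saline libraries, chronic home cage injections 6 and 6, conditioning 6 and 6, and intravenous self-administration 15 and 9. The sources used here give no strain, age, dose or time of tissue collection. The labels do not say that the libraries of a group came from separate animals, so p-values measure the spread between these libraries, which may be partly technical.

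Neurotransmitter release rests on SNARE proteins. A vesicle SNARE (Vamp1 or Vamp2, the synaptobrevins) zips together with a syntaxin and Snap25 on the plasma membrane, and Munc13 and RIM proteins prepare vesicles at the active zone. Calcium binding to a synaptotagmin such as Syt1 or Syt2 then triggers fusion, and complexins hold the partly zipped complex. Neuron types use different paralogs, so a tissue sample reads a mixture of them, and in such bulk RNA fewer cells of a type and less RNA per cell cannot be told apart.

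Promoters were read for 61 of the 78 members from RefSeq (GRCm38.p6), as 250 bases before to 50 after the gene start. The 6 shown are those of the pair of calcium sensors whose levels followed different neuron markers below, and of 4 genes called between self-administration and the other paradigms in both saline and cocaine (Syn1 not after the GC and length correction below), of which Stxbp5 and Stx12 were picked for their motif. Capitals mark 4 motifs searched on both strands: the GC box GGGCGG, the cyclic AMP response element TGACGTCA, CGCATGCG, the centre of the palindrome bound by NRF1, and TTCAGCACC, a part of the RE1 element bound by the repressor REST. They lie at chr10:109010926-109011225 (Syt1, minus strand), chr1:134646362-134646661 (Syt2, plus strand), chrX:20920869-20921168 (Syn1, minus strand), chr8:71671708-71672007 (Unc13a, minus strand), chr10:9900991-9901290 (Stxbp5, minus strand) and chr4:132884409-132884708 (Stx12, minus strand).
Syt1: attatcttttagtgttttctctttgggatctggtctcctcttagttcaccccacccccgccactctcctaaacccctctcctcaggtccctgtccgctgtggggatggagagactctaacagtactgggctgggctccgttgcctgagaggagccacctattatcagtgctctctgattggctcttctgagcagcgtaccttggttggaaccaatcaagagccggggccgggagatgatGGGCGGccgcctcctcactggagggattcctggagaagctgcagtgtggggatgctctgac
Syt2: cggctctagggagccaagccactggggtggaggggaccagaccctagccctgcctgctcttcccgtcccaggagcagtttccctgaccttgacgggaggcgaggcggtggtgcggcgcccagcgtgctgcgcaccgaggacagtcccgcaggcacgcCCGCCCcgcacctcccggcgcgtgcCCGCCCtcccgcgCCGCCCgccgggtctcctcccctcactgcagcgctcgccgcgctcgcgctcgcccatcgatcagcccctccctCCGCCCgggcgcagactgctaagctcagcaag
Syn1: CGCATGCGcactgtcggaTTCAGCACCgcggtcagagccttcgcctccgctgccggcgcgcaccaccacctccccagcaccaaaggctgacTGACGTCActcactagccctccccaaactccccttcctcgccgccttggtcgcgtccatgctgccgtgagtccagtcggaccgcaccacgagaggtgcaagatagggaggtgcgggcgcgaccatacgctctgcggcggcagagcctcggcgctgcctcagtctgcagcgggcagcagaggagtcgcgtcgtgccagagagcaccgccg
Unc13a: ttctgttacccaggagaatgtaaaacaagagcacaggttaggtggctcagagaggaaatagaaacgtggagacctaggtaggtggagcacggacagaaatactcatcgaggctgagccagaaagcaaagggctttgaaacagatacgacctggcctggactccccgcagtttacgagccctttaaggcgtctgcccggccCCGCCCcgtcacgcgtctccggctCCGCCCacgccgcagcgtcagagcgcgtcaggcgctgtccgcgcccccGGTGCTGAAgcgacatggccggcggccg
Stxbp5: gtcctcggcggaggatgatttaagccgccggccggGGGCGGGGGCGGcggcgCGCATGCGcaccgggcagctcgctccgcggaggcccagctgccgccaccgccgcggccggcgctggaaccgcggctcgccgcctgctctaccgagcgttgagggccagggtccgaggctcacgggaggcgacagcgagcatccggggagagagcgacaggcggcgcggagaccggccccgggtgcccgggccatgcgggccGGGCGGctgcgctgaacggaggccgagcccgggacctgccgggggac
Stx12: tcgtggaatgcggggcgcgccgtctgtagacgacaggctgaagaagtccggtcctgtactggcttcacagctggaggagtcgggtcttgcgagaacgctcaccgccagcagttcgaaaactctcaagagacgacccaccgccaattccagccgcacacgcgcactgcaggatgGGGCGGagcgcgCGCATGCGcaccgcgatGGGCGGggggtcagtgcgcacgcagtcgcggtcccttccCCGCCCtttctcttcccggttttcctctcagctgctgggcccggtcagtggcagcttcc
The Syt2 promoter held 4 GC boxes and the Syt1 promoter 1. A GC box stood in 50 of the 61 member promoters (82.0%), in 69.6% of the 9960 promoters of tested genes and in 38.2% of all 27025. The RE1 part stood in Syn1 and Unc13a only, 3.28% of the member promoters against 0.582% of those of tested genes. The NRF1 centre stood in 5 (Rab3gap2, Snap23, Stx12, Stxbp5 and Syn1), 8.20% against 4.22%. The cyclic AMP element stood in Stxbp3 and Syn1, at 3.28% against 3.62%. These matches describe letters in a window and not bound sites.

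Members made up 1.49% of the summed FPKM. Snap25, the plasma membrane SNARE (chr2:136713453-136782428, GRCm38, plus strand), had the highest level, a mean of 1309 FPKM and a range of 969 to 2046 over the 59 libraries. Among the other neuronal SNAREs the mean was 403 FPKM for Vamp2, 306 for Vamp1 and 16.4 for Stx1a. FPKM is per length, so the 2 synaptobrevins can be set side by side. Cplx1, a complexin, had a mean of 627 FPKM against 100.4 for Cplx2.

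On the vesicle itself, Sv2a (218 FPKM) stood above Sv2c (31.8) and Sv2b (30.1), and Rab3a (385) above Rab3c (140) and Rab3b (8.13). SV2 proteins are vesicle glycoproteins and Rab3 proteins are GTPases that tether vesicles. Of the 15 synaptotagmins, Syt11, which does not bind calcium, was highest at 258 FPKM, followed by Syt1 at 198. Syt4 had 95.3, Syt5 51.7, Syt2 50.7 and Syt7, a slow high-affinity sensor, 32.5 FPKM. Synapsins, which tie vesicles into the reserve pool, were at 115 FPKM for Syn1, 107 for Syn2 and 8.07 for Syn3.

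The priming factors were low by comparison. Rims3 had a mean of 57.8 FPKM and the other 3 RIMs lay between 13.0 and 16.9, while Unc13c had 24.8, Unc13a 16.0 and Unc13b 2.16. SNAREs of endosomes and the Golgi were present too, from Snap47 at 287 FPKM and Stx12 at 78.1 down to Vamp5 at 1.32. Just inside the level of 1 FPKM lay Rab39 at 1.02, and just outside it Rab3d at 0.969 and Rab32 at 0.896. The remaining 10 symbols below it include Cplx3 at 0.609, and Vamp7 is listed at 0 in all 59 libraries.

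**Figure D1:**
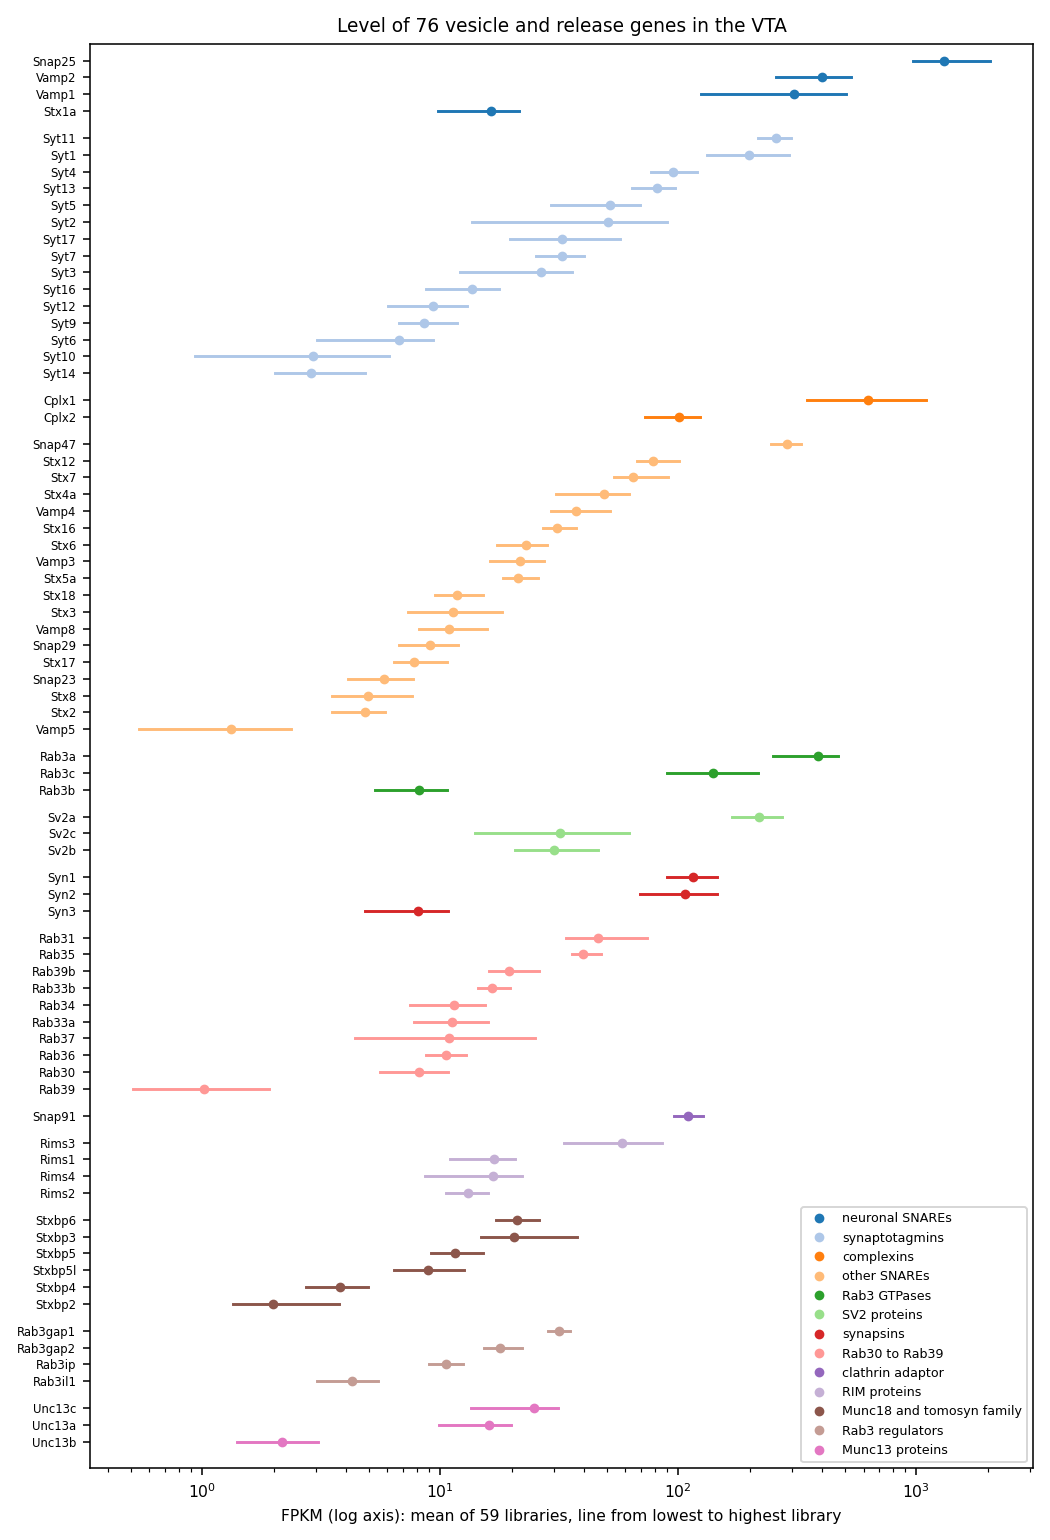
Mean FPKM (point) and range over 59 libraries (line) for 76 of the 78 members on a log axis, grouped and coloured by family. Snap25 stands highest at 1309 FPKM, and Syt2, Sv2c, Rab37 and Vamp1 have long lines beside their neighbours.

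The members differed in how far they varied within a group. The within-group SD of log2(FPKM + 1) had a median of 0.15 over the members and 0.14 over all 13186 genes at that level or above. It was highest for Rab37 (0.52), Sv2c (0.49), Syt2 (0.47), Syt17 (0.37), Vamp1 (0.35) and Cplx1 (0.34). Rab3gap1, part of the enzyme that switches Rab3 off, had the lowest value at 0.06.

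The first comparison asked whether cocaine moved these genes within a paradigm. No member passed an adjusted p of 0.05 in any of the 4 comparisons (limma on log2(FPKM + 1), two-sided, Benjamini-Hochberg over all genes tested), and the background was also 0% in each. At an unadjusted p under 0.05 there were 2 of 77 members in the acute comparison (background 3.91% of genes), 3 of 77 in the chronic (7.38%), 11 of 78 in conditioning (8.21%) and 4 of 78 in self-administration (3.43%). In no paradigm did the cocaine and saline libraries of a member fail to overlap, where 0.311% of genes did in the acute, 0.516% in the chronic and 0.404% in the conditioning comparison, and 0% in self-administration.

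Differences of abundant core genes were small beside their spread. Snap25 ranged in conditioning from 1129 to 1416 FPKM with a median of 1275 in saline, and from 1133 to 1678 with a median of 1357 in cocaine. The groups overlapped, and the difference was 0.11 ± 0.09 (log2, SE). Differences of Sv2c were the least precise, at -0.46 ± 0.34 in the acute comparison.

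**Figure D2:**
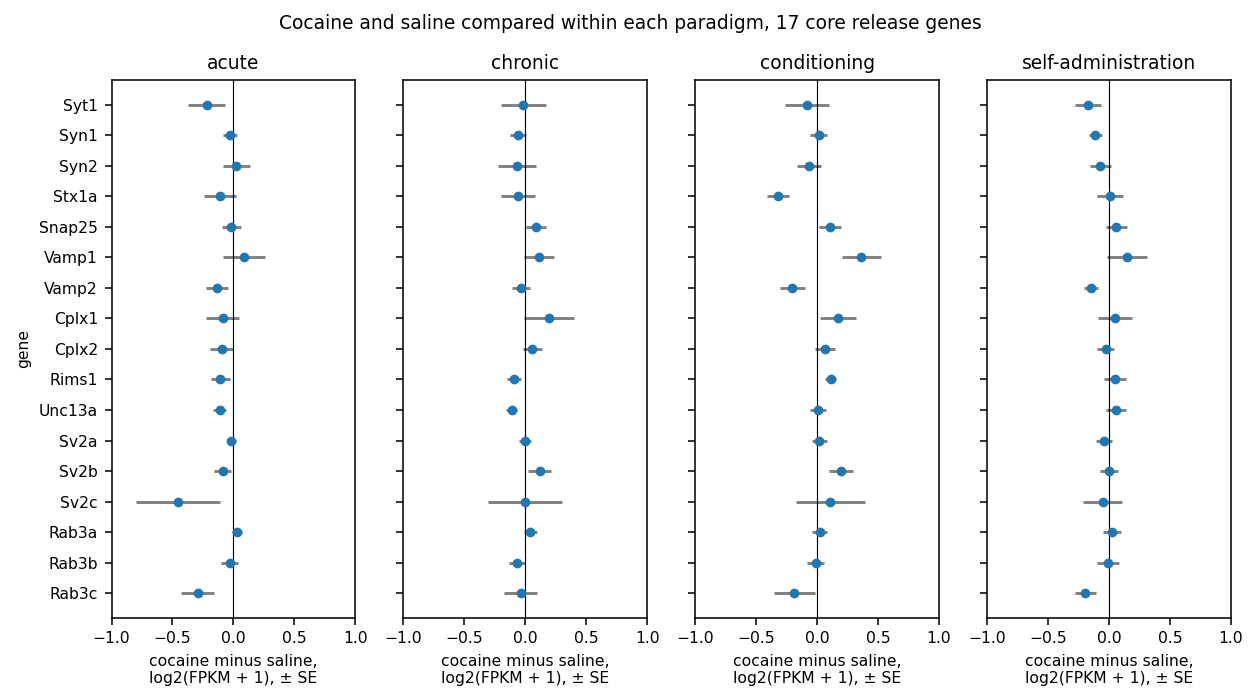
Cocaine minus saline difference in log2(FPKM + 1) with its SE for 17 core release genes, 1 panel per paradigm. Most points lie within 0.2 of 0, with Stx1a at -0.32 and Vamp1 at 0.36 in conditioning and Sv2c at -0.46 in the acute comparison.

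In conditioning 7 members were higher and 4 lower in cocaine at an unadjusted p under 0.05, and none passed adjustment. With library weights 4 members were at that p in conditioning (background 8.88%) and 24 in self-administration (24.6%). Stx1a, a plasma membrane syntaxin (chr5:135023482-135051100, plus strand), ran from 15.5 to 21.4 FPKM in saline with a median of 18.1. In cocaine it ran from 11.7 to 16.2 with a median of 15.4, and 0 of 6 libraries lay above the saline median. Its difference was -0.32 ± 0.09 (limma p = 0.0032, adjusted p = 0.591).

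Rims3, a short RIM, ran from 50.5 to 70.7 FPKM in conditioning saline (median 58.8) and from 43.2 to 57.7 in cocaine (median 52.0), a difference of -0.22 ± 0.09. Syt5, a synaptotagmin, had a saline range of 48.6 to 63.4 FPKM (median 55.5) and a cocaine range of 29.1 to 57.0 (median 49.0), a difference of -0.32 ± 0.14. Syt2, the fast calcium sensor, pointed the other way: 25.8 to 67.6 FPKM in saline (median 49.6) and 53.0 to 81.1 in cocaine (median 67.7), a difference of 0.55 ± 0.23. In all these genes the ranges overlapped, and the adjusted p was between 0.591 and 0.597.

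Vamp1 was placed likewise, with 199 to 360 FPKM in saline (median 287) and 276 to 466 in cocaine (median 366), a difference of 0.36 ± 0.16. Its paralog Vamp2 had the opposite sign but was not at an unadjusted p under 0.05. Vamp2 ran from 323 to 460 FPKM in saline (median 366) and 258 to 369 in cocaine (median 343), a difference of -0.20 ± 0.10. Syt7 differed by 0.13 ± 0.05, Syt3 by 0.22 ± 0.08, and Rims1, an active zone scaffold, by 0.11 ± 0.05, with cocaine above the saline median in 6, 6 and 5 of 6 libraries. Syt16, Rab33a and Syn3 were the other members at an unadjusted p under 0.05, at -0.18, 0.14 and 0.19.

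Pvalb, a calcium buffer of fast-spiking inhibitory neurons, differed between the same libraries. It ran from 76.4 to 227 FPKM in conditioning saline (median 125) and from 144 to 267 in cocaine (median 195), a difference of 0.59 ± 0.31 (adjusted p = 0.634). With Pvalb and the level of dopamine markers as covariates, 3 members were at an unadjusted p under 0.05 in conditioning (background 3.94%): Stx1a at -0.22 ± 0.07 (adjusted p = 0.999), Rab33a, and Rab34, which was not under it without the covariates. The Syt2 difference was then 0.16 ± 0.10 and that of Vamp1 0.11 ± 0.07. This fit was added after the data were seen, and whether Pvalb-rich tissue accounts for the difference was not tested.

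**Figure D3:**
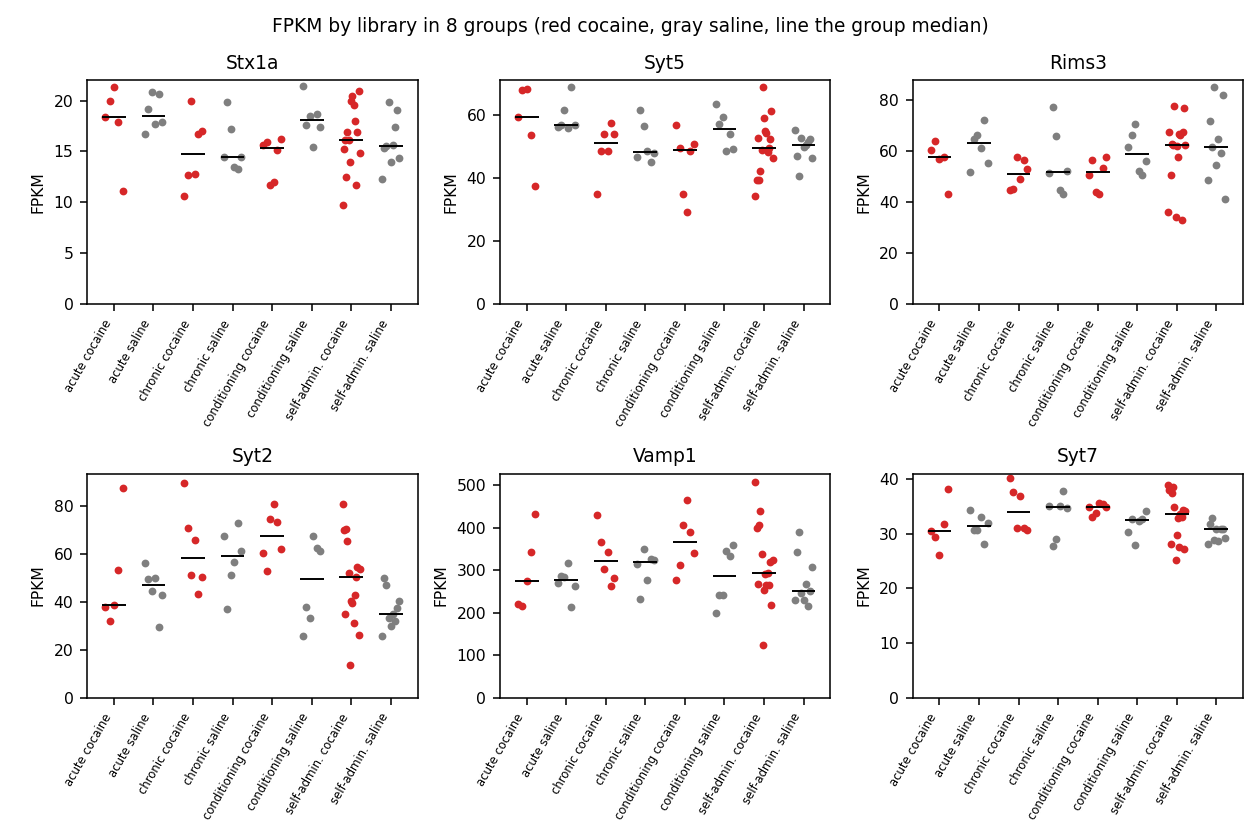
FPKM by library for Stx1a, Syt5, Rims3, Syt2, Vamp1 and Syt7 in all 8 groups, with red points for cocaine, gray for saline and a line at the group median. In the conditioning columns the cocaine median of Stx1a (15.4) lies below that of saline (18.1) and that of Syt2 (67.7) above (49.6), with overlapping points.

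In the acute comparison 52 of 77 members were lower in cocaine and 25 higher, where 49.4% of all genes were higher. The median difference was -0.03 beside 0.00 for all genes. Members come from the same libraries and are not independent of one another. Rab3c, a vesicle GTPase (chr13:110054187-110280996, minus strand), was at 156, 151, 113, 111 and 89.8 FPKM in the 5 cocaine libraries, and between 130 and 178 (median 151) in saline. The difference was -0.29 ± 0.13 (limma p = 0.04998, adjusted p = 0.985). Syt1 was at 242, 235, 143, 154 and 139 FPKM in cocaine and between 178 and 236 (median 210) in saline, so 3 cocaine libraries lay below every saline library. Its difference was -0.22 ± 0.15.

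The 12 dopamine markers summed to a median of 964 FPKM (732 to 2303) in the acute cocaine libraries and 1688 (1349 to 2514) in acute saline, so they moved with Rab3c and Syt1, and their part in the result was not tested. With the markers and Pvalb as covariates, 9 members were at an unadjusted p under 0.05, all lower in cocaine, and none passed adjustment (background 6.72%).

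At an unadjusted p under 0.05 chronic cocaine gave 2 members higher and 1 lower (background of either direction 7.38%). The lower was Unc13a, the main Munc13 priming factor of the forebrain, at 15.7 to 18.1 FPKM (median 16.3). In saline Unc13a was at 17.4 to 19.5 FPKM (median 17.8). The difference was -0.11 ± 0.05 (adjusted p = 0.635). In self-administration Vamp2 ran from 359 to 530 FPKM (median 449) in cocaine and from 446 to 528 (median 489) in saline. Its difference was -0.15 ± 0.06 (adjusted p = 0.999), and 2 of 15 cocaine libraries lay above the saline median. Rab3c was lower there as well, at -0.19 ± 0.09.

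Averaged over the paradigms, 0 members passed adjustment and 12 of 78 were at an unadjusted p under 0.05, beside 12.8% of all genes (1 gene of all tested passed adjustment, 0.00758%). Vamp2 led with -0.13 ± 0.04 (adjusted p = 0.247), followed by Syt14 at -0.11 ± 0.04 and Syt16 at -0.12 ± 0.04. The 6 differences between the cocaine effects of paradigms gave 0 members called and a background of 0%. At an unadjusted p under 0.05 they gave Syt9 between conditioning and acute (background 1.41%), Stxbp4 and Rab34 between self-administration and acute (1.73%), and Stx17 between self-administration and conditioning (3%). The other 3 differences gave 0 members, beside 1.11% of genes for chronic minus acute, 2.18% for conditioning minus chronic and 2.21% for self-administration minus chronic.

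A second question was what the variable members shared across libraries, since markers of neuron types differed widely between libraries of a group. The dopamine marker level was the mean log2(FPKM + 1) of 12 genes, among them Th, Slc6a3 and Slc18a2. Associations were fitted within groups, separately in the 35 injected and the 24 self-administration libraries, and this was chosen after the data were seen. In injected libraries 16 members were positive and 13 negative with the dopamine level at an adjusted p of 0.05 (background 12.8% and 12.7% of genes). In self-administration 4 were positive and 2 negative (1.53% and 0.503%).

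The 4 members that were positive in both sets were Syt17, Syt1, Sv2c and Rab3c, 5.13% of members beside 1.52% of genes. Syt17 (chr7:118380717-118448222, minus strand) followed the markers most closely: Pearson's r was 0.98 and Spearman's rho 0.98 in injected libraries, and 0.94 and 0.93 in self-administration. The permutation p was 1e-05 for each, the smallest that 100000 permutations can give. Without the 2 libraries farthest from the median dopamine level r was 0.98 and 0.92. For Syt1, the calcium sensor of fast release, r was 0.97 and rho 0.96 in injected libraries, and r was 0.83 and rho 0.89 in self-administration. Without the 2 farthest libraries r was 0.96 and 0.75.

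Sv2c (chr13:95954594-96132577, minus strand), an SV2 form known from dopamine neurons, had r of 0.93 and 0.81 and rho of 0.92 and 0.77. Its slope was the steepest among them, 0.85 ± 0.06 and 0.72 ± 0.11 log2 units per log2 unit of markers (adjusted p = 8.57e-13 and 0.000136). Rab3c followed with r of 0.82 and 0.64 and rho of 0.81 and 0.60, the second with an adjusted p of 0.0348. That call was lost without self-administration cocaine library 4, 10 or 11 or saline library 0 or 6 (adjusted p of 0.0900 to 0.115) and with quantile normalization (0.155). The permutation p of the 4 members was at most 0.00098 for r and 0.00265 for rho in self-administration, and 1e-05 in injected libraries. Members here and below were picked by their slopes in the same libraries, so their permutation p is no separate support. Two-sided adjusted p-values for Syt17 were 1.64e-20 and 1.38e-08, and for Syt1 1.41e-16 and 8.38e-05.

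Syn2 and Syt6 went the other way in both sets, 2.56% of members beside 0.403% of genes. Syn2, a synapsin, had r of -0.81 and -0.70 and rho of -0.80 and -0.72. Syt6, a synaptotagmin, had r of -0.82 and -0.69 and rho of -0.83 and -0.67. The permutation p of this pair was at most 5e-04 for r and 0.00064 for rho, and r without the 2 farthest libraries lay between -0.78 and -0.54. The Syt6 call in self-administration was lost without cocaine library 11 (adjusted p = 0.12) or saline library 6 (0.0691). Cplx1 had r of 0.76 in injected libraries and 0.55 in self-administration, where it did not pass adjustment (adjusted p = 0.115, permutation p = 0.00757). The slopes of the 2 sets were compared directly: 0 members differed (background 0%), with 4 at an unadjusted p under 0.05, the smallest for Syt13.

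Pvalb was read in the same way. In injected libraries 14 members were positive and 11 negative (background 14.2% and 12%), and in self-administration 11 and 9 (9.32% and 6.65%). In both sets 7 were positive (8.97% of members, 6.18% of genes): Syt2, Rab37, Snap25, Vamp1, Syt7, Stx8 and Stx18. Another 8 were negative in both (10.3% of members, 3.84% of genes): Stx1a, Syt5, Vamp2, Rab3c, Rab36, Syt10, Syt14 and Syt16. Over these 15 members the permutation p, which is not adjusted, was at most 0.0055 for r and 0.0239 for rho. They too were picked by their slopes in the same libraries, so it is no separate support. Without the 2 libraries farthest from the median Pvalb level r lay between 0.38 and 0.91 for the positive members. For the negative members it lay between -0.75 and -0.38. In injected libraries the inhibitory neuron markers Gad1, Gad2 and Slc32a1 did not pass with Pvalb. Their slopes were 0.17, 0.04 and -0.06 (limma adjusted p = 0.177, 0.601 and 0.538). The neurofilament genes Nefm, Nefh and Nefl passed, with slopes of 1.01, 1.04 and 0.82. Which neurons Pvalb stands for in these libraries was not tested.

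Syt2 had r of 0.93 and rho of 0.94 in injected libraries, and r of 0.71 and rho of 0.77 in self-administration (adjusted p = 2.52e-12 and 0.0015). Rab37, a GTPase of secretory granules, had r of 0.88 in both. Snap25 had r of 0.84 in both, with slopes of 0.24 ± 0.03 and 0.26 ± 0.04, so even the most abundant member moved with Pvalb. Vamp1 had r of 0.81 and 0.72, and Syt7 0.79 in both. Without self-administration cocaine library 0, which had the highest Pvalb (368 FPKM) and Snap25 (2046 FPKM) of all libraries, Stx8 and Vamp2 lost their calls in that set (adjusted p = 0.0914 and 0.201). Vamp2 also lost it without cocaine library 3, 4 or 13 (0.0532 to 0.0571), Rab3c without cocaine library 13 (0.0717), and Snap25 with quantile normalization (0.0642). In injected libraries Syt14 lost its call without any 1 of 9 libraries and Syt10 without acute cocaine library 4 (0.0572).

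Stx1a had r of -0.80 and -0.71 with Pvalb, and Syt5 had -0.77 and -0.83. Vamp2 had -0.64 and -0.58, against 0.81 and 0.72 for Vamp1, so the 2 synaptobrevins had slopes of opposite sign. The 2 calcium sensors did not follow the same marker: Syt1 with Pvalb had r of -0.24 and -0.29, and Syt2 with the dopamine level -0.35 and -0.19, none of which passed adjustment (permutation p for r of 0.213, 0.166, 0.054 and 0.355). Slopes with Pvalb differed between the sets in 0 members and in 0.0228% of genes. Of the 6 members of the conditioning panels, Syt2, Vamp1 and Syt7 were positive with Pvalb in both sets, and Stx1a and Syt5 negative. Rims3 had a slope of -0.35 ± 0.03 in injected libraries and -0.21 ± 0.10 in self-administration, where it did not pass (adjusted p = 0.163). Of the other members at an unadjusted p under 0.05 in conditioning, Syt16 was negative in both sets. Syt3 and Syn3 passed in injected libraries only, Rab33a in self-administration only and Rims1 in neither.

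**Figure D4:**
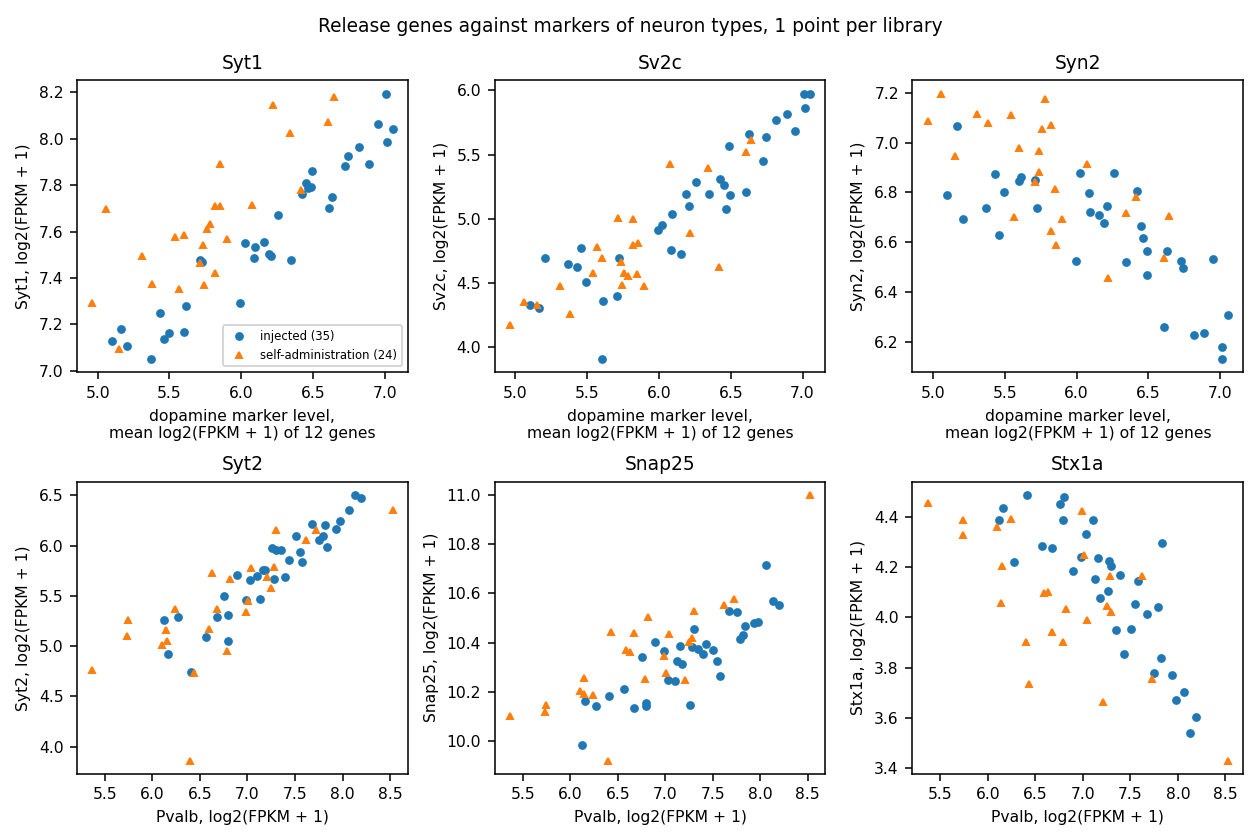
Log2(FPKM + 1) of Syt1, Sv2c and Syn2 against the dopamine marker level, and of Syt2, Snap25 and Stx1a against Pvalb, 1 point per library, with blue circles for 35 injected and orange triangles for 24 self-administration libraries. Syt1, Sv2c, Syt2 and Snap25 climb with their marker and Syn2 and Stx1a descend.

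Self-administration was then set against the other 3 paradigms, separately in saline and in cocaine libraries. The labels give no batch, self-administration libraries stood apart along the first principal component (37.9% of variance), and the paradigm cannot be told apart from how those libraries were made. In saline 32 members were higher and 16 lower in self-administration at an adjusted p of 0.05 (background 31.7% and 27%), and in cocaine 33 and 19 (32.9% and 28%). In both, 30 members were higher (38.5%, background 28%) and 15 lower (19.2%, background 24.2%), and 0 had opposite calls. The share of members higher in both was above that of all genes and the share lower was below it. In 42.3% of members and 47.8% of genes there was no call in both. Members are not independent of one another, and the tilt towards higher was not tested.

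Vamp4, a SNARE of the trans-Golgi network and endosomes (chr1:162570515-162599084, plus strand), was the 1 member whose libraries did not overlap (2.31% of genes). It ran from 38.3 to 51.8 FPKM in the 24 self-administration libraries (median 42.1) and from 29.1 to 37.2 in the 35 others (median 32.8). The difference was 0.37 ± 0.04 in saline and 0.35 ± 0.03 in cocaine. Vamp2 ran from 359 to 530 FPKM (median 468) against 258 to 460 (median 369), a difference of 0.37 ± 0.06 and 0.35 ± 0.05. Snap25, the plasma membrane partner of Vamp2, did not pass, at -0.00 ± 0.07 and -0.00 ± 0.06.

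Rab31, a Golgi and endosome GTPase (chr17:65651729-65772752, minus strand), had the largest higher call in saline, 0.55 ± 0.06, and 0.43 ± 0.06 in cocaine. Stxbp3 (Munc18c) was higher by 0.47 ± 0.09 and 0.50 ± 0.08, and it has a pseudogene, Stxbp3-ps, that could share its reads. Stxbp5, the tomosyn whose promoter is shown above, was higher by 0.32 ± 0.04 in both, and Stx12 by 0.21 ± 0.03 and 0.18 ± 0.03. Syn2 was higher by 0.27 ± 0.09 and 0.24 ± 0.08, and with the dopamine and Pvalb covariates it was at 0.02 and 0.04 and no longer called.

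Stx4a, a plasma membrane syntaxin, had the largest lower difference in saline, and Rab33a, a Golgi GTPase, in cocaine. Stx4a ran from 30.8 to 49.1 FPKM in self-administration (median 38.2) and 48.9 to 62.0 in the others (median 55.3). The difference of Stx4a was -0.55 ± 0.05 and -0.45 ± 0.04, with ranges that met only at their ends. Unc13a ran from 9.92 to 16.7 FPKM (median 13.8) against 14.4 to 19.9 (median 17.8), a difference of -0.43 ± 0.06 and -0.30 ± 0.05. Rab33a differed by -0.35 ± 0.05 and -0.46 ± 0.04, Syt3 by -0.45 ± 0.09 and -0.42 ± 0.08, and Rims1 by -0.23 ± 0.07 and -0.16 ± 0.06. The Rims1 call in cocaine was lost with library weights (adjusted p = 0.112) and with the covariates (0.0855), and the Syt3 call in saline with the GC correction described next (0.0809). Syn1 was lower by 0.13 ± 0.05 and 0.22 ± 0.04, and Rab3a by 0.17 ± 0.05 in each.

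Base composition moved with these differences. The longest transcript of the members higher in both had a median GC content of 47.2%, and that of the lower members 53.5%. Over all genes the same medians were 47.3% and 54.9%. Across the 78 members GC content and the difference had a Spearman correlation of -0.49 in saline and -0.50 in cocaine, and across 12708 genes -0.38 and -0.37. Genes are not independent replicates, and all these differences come from the same libraries. After a correction for GC content and length, added after the data were seen, 18 members were higher in both and 14 lower. All 18 and 10 of the 14 had the same call without the correction. The share of all genes called after the correction is not given here, so these counts have no background beside them.

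Unc13a kept its difference after that correction (-0.46 and -0.36), as did Stx4a (-0.43 and -0.33), Vamp2 (0.43 and 0.41), Vamp4 (0.33 and 0.32) and Rab31 (0.50 and 0.39). Stxbp5 was at 0.17 and 0.17, below its value without the correction. Syn1 was then at 0.07 in saline and -0.05 in cocaine and Rab3a at -0.02 and -0.03, and neither was called. Quantile normalization also ended the Rab3a calls and that of Syn1 in saline. Of the 2 genes with the RE1 part, Unc13a was thus lower with and without the correction, and Syn1 only without it.

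**Figure D5:**
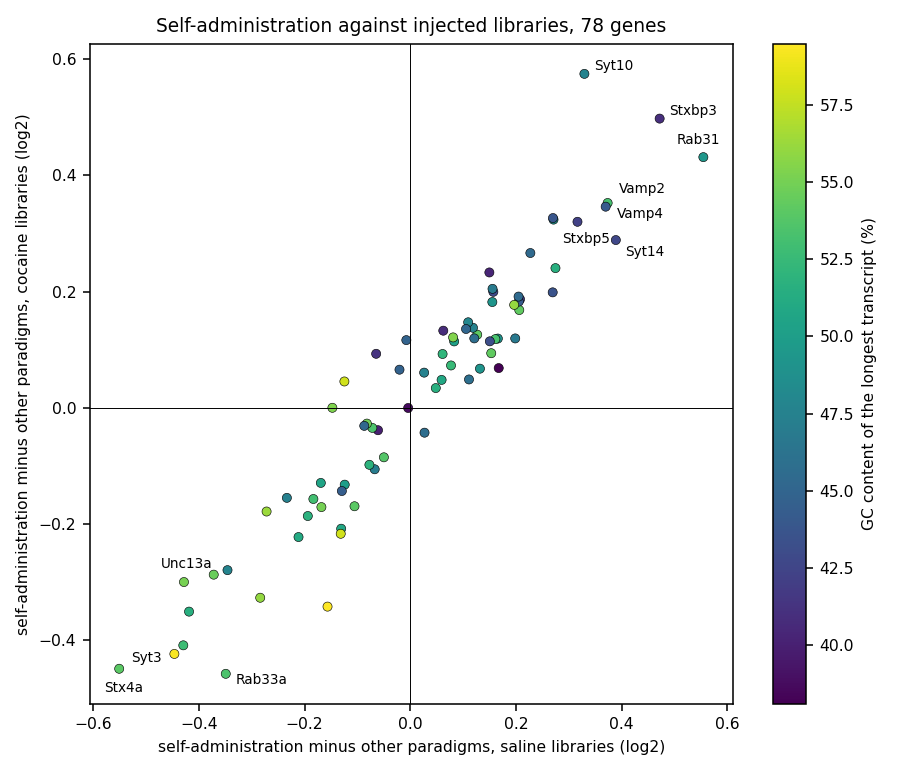
Self-administration minus the other paradigms in log2(FPKM + 1), saline libraries on the x axis and cocaine libraries on the y axis, 1 point per member, coloured by the GC content of the longest transcript. The points run along the diagonal, from Stx4a (-0.55 and -0.45) to Rab31 (0.55 and 0.43), with more GC-rich genes at the lower left.

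Cell markers differed between these libraries too. Oligodendrocyte markers (7 genes) summed to a median of 5458 FPKM in self-administration cocaine and 4865 in self-administration saline, against group medians of 7166 to 8461 in the others. General neuron markers (9 genes) had group medians of 1984 in self-administration cocaine and 1848 in self-administration saline against 2348 to 2878. Not all lists were lower. Astrocyte markers (7 genes) had medians of 484 in self-administration cocaine and 547 in saline against 404 to 476. Slc17a6, a marker of glutamate neurons, had 146 and 125 against 108 to 126. Hypothalamic markers reached 204 FPKM and pituitary markers 915 FPKM in single self-administration saline libraries. The highest sums were 86.9 and 375 in self-administration cocaine libraries, and 47.6 and 14.5 in injected libraries. Their part in the differences was not tested. Self-administration saline library 0, with the highest hypothalamic sum, also had the lowest Rab3a of its group. Without that library 45 members were called in saline, and 48 with it. The share of all genes without it is not given here.

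Conditioning against home cage injections and chronic against acute injections gave 0 members called in saline or cocaine (backgrounds 0.0379% and 0.0152% for conditioning, 0% for both of the others). At an unadjusted p under 0.05 there were 5 members in saline (background 4.24%) and 7 in cocaine (8.48%) for conditioning, and 1 (1.88%) and 5 (4.85%) for chronic against acute. The smallest p was that of Stx6, an endosomal syntaxin, lower by 0.21 ± 0.05 in chronic than in acute cocaine (adjusted p = 0.255).

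Other genes of the release cycle, a list of 59 with synaptophysins, active zone, priming and endocytosis genes, were read beside the members. Of the 55 or 56 tested, 0 passed adjustment in any cocaine comparison. At an unadjusted p under 0.05 there were 1 higher and 1 lower in the acute (background of either direction 3.91%), 2 and 1 in the chronic (7.38%), 5 and 4 in the conditioning (8.21%) and 0 and 1 in the self-administration comparison (3.43%). In conditioning the smallest p was that of Synpr (synaptoporin), at -0.54 ± 0.16. Self-administration against the others called 20 higher and 10 lower in saline (background 31.7% and 27%), and 22 and 11 in cocaine (32.9% and 28%). With the dopamine level 17 were positive and 7 negative in injected libraries (12.8% and 12.7%), led by Cadps2 (CAPS2, a dense-core vesicle priming factor) with a slope of 0.84 ± 0.03, and 3 and 1 in self-administration (1.53% and 0.503%). With Pvalb 12 were positive and 14 negative in injected libraries (14.2% and 12%), and 4 and 8 in self-administration (9.32% and 6.65%).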

How the data were processed

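RNA-seq of 59 VTA libraries in 8 groups was analysed. The authors deposited FPKM by gene symbol. An RNeasy kit gave the RNA and a TruSeq RNA kit the libraries, per the labels' protocols. Per the submitters' processing notes, Bowtie and Cuffnorm were used with mm10. The sources used here give no versions, annotation or strand setting, so reads of overlapping or near-identical genes could be split. Columns were mapped to groups by name, and column numbers (from 0) name libraries only. FPKM sums ran from 398577 to 457508 per library. Whole reads could not be recovered from low values (the most frequent step held at most 5.96% of low genes), so depth is unknown and no count test was run.

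Values were transformed to log2(FPKM + 1), so differences of low genes are understated. Genes whose mean FPKM was 1 or more in a comparison's libraries were fitted in limma 3.58.1 (R 4.3.3, trended and robust empirical Bayes, two-sided), with Benjamini-Hochberg adjustment over all genes tested and 0.05 as the threshold. Within-paradigm fits used that paradigm's libraries. The average cocaine effect was fitted over all 59 libraries with paradigm as an additive term. Marker associations were fitted within groups, separately in injected and self-administration libraries. The comparisons between paradigms and the differences between cocaine effects used all 8 group means. The code was tested on simulated data. Correlations used residuals from group means, with 100000 permutations within groups. Transcript GC content came from GENCODE M21 and coordinates from GRCm38. A total of 4 marker associations, by 2 markers and 2 sets of libraries, were computed.

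Members and lists were chosen with earlier results of these data known. Named genes were 19 core genes, up to 5 per direction with the smallest p in each cocaine comparison, up to 3 in the average and in each difference, up to 6 per direction with the largest called differences between paradigms, each family's most abundant member and those beside the level limit. Stxbp5 and Stx12 were named for their promoter motif, and genes of the marker associations for passing in both sets, after their values were seen. Some results of named members are not reported here. Alternatives were the pseudocount, filter, scaling, library weights, variance options, GC correction, covariates and leaving out each library.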

Additional observations from a re-analysis of the deposited data

Results flagged for a closer look

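In each group of 5 to 9 libraries, the highest or lowest value of a named member was tested for its gap to the next by Dixon's criterion. The criterion was met in 25 of 322 sets of values (7.76%), where chance gives about 1 in 20 for a single set. The sets share libraries and the genes were named from these data. Whether the share exceeds chance was therefore not tested.

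Self-administration saline library 0 held 3: it was low for Rab3a (249 FPKM) and Rab3b (5.30) and high for Stx17 (10.7). Acute saline library 0 held 3, all high: Cplx1 (839 FPKM), Syt17 (49.9) and Stxbp3 (17.6). Acute cocaine library 4, which had the highest Pvalb of the injected libraries (292 FPKM), held 6: it was high for Rab33a (15.8), Rab37 (15.5), Stx18 (15.0) and Stx8 (6.86) and low for Rab36 (8.73) and Syt10 (0.933). Acute saline library 4 was high for Rab33b (17.2) and low for Syt3 (23.6).

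Among the core genes in other libraries, Syt1 was high in conditioning saline library 0 (267 FPKM), Snap25 low in chronic saline library 1 (1014), Unc13a high in acute cocaine library 3 (19.7) and Sv2c high in chronic cocaine library 3 (61.7). The remaining values were Rab35 in chronic saline library 2 (38.1, high), Stx18 in chronic saline library 5 (12.9, high), Stx8 in conditioning cocaine library 3 (6.31, high), Syt16 in conditioning cocaine library 1 (12.9, high), Rab34 in self-administration saline library 2 (7.83, low) and, in chronic cocaine library 0, Syt9 (9.30, high) and Rab36 (9.04, low).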

How the results depend on the processing

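No paired analysis was possible because the columns carry numbers that are not tied to the replicate numbers of the labels. Every comparison of cocaine with saline, the average and the differences between cocaine effects kept 0 members called under all alternatives run, leaving out each library included (0 to 0). With library weights 1 member was called in cocaine chronic against acute (0.538% of all genes in the same weighted fit), 2 in saline chronic against acute (1.57%) and 1 in saline conditioning against home cage (1.58%), where 0 were otherwise, and 37 with Pvalb in self-administration libraries (37.9%) in place of 20 (16%). The cause was not tested. Library weights also put 24 members at an unadjusted p under 0.05 in self-administration (24.6% of genes) and 4 in conditioning (8.88%), in place of 4 (3.43%) and 11 (8.21%). Leaving out each library gave 50 to 54 members called in self-administration against the others in cocaine, and 42 to 50 in saline. With the dopamine level it gave 25 to 29 in injected and 4 to 7 in self-administration libraries, and with Pvalb 24 to 27 and 16 to 23. Shares of all genes in these fits are not given here, so the counts show only how far the number called moved. Rab37 in cocaine self-administration changed sign with the dopamine and Pvalb covariates (0.026, adjusted p = 0.821), and Syn1 in saline with the GC and length correction (0.070, adjusted p = 0.238). Without self-administration saline library 0 the saline difference of Rab3a was -0.11 (adjusted p = 0.0540), and without library 4, which had the highest pituitary sum, that of Syn1 was -0.10 (adjusted p = 0.0869). For single genes, the other settings kept 906 calls on their side and lost 29, and leaving out libraries kept 3138 and lost 47. Depth is unknown, so no counting limit can be given for low members such as Rab39.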
